A study of Mus musculus with 9 samples.

Results

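The epidermal growth factor (EGF) family and its Erbb receptors were examined in mouse embryonic stem cells through 8 genes: the ligand genes Ereg, Areg, Hbegf, Btc and Tgfa, and the receptor genes Egfr, Erbb2 and Erbb3. They were taken from the count table by symbol, as 8 of its 52264 rows, and were selected on the higher Ereg level in the CHIR than in the control libraries. Values of the 8 genes in that contrast are therefore given as a description, without p-values. Of the 8, 6 passed the low-count filter that left 15366 rows for testing, and Areg and Btc did not.

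The series holds RNA sequencing of embryonic stem cells whose genotype label is beta-catenin-/-, in 3 groups of 3 libraries. The groups are an untreated control, BRD0705, an inhibitor selective for the kinase GSK3α, and CHIR (CHIR-99021), an inhibitor of GSK3α and GSK3β, with 30 min of exposure at doses the labels do not give. Cells of every group carry the same genotype, were grown on feeder-treated dishes, were expanded with 3 µM CHIR-99021, 1 µM PD03 (an inhibitor of MEK, the kinase that activates ERK) and 40 ng/ml LIF, and were moved to N2B27 medium overnight before treatment. All groups had thus met CHIR and a MEK inhibitor before the experiment. Whether the cells are 1 clone, and whether replicates were separate cultures, is not given in the sources used here, so p-values measure only the spread between these libraries.

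EGF family ligands are made as membrane-anchored precursors that metalloproteases such as ADAM17 cut free. They bind Erbb receptor tyrosine kinases, which pair up and signal through adaptors to RAS and ERK. Ereg, Areg and Hbegf are known in many cell types as early response genes of ERK signalling, so that a cell making them can feed the pathway again. ERBB2 has no known ligand of its own and acts as a partner, and ERBB3 has a weak kinase and relies on its partner.

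Ereg, Areg and Btc lie together on chromosome 5, and the regions before Areg and Btc are shown because both genes are expressed at very low levels and Areg alone of the pair had every inhibitor library above every control library. On GRCm38.p6, Ereg spans 91074617 to 91093649, Areg 91139599 to 91148432 and Btc 91357261 to 91402994, with 45.95 kb between Ereg and Areg and 208.8 kb between Areg and Btc. RefSeq's promoter table had entries for 5 of the 8 genes (Areg, Btc, Tgfa, Egfr and Erbb2) and none for Ereg, Hbegf and Erbb3. The sequences run 5′ to 3′ on the gene's strand over the 250 bases before the start, at chr5:91139349-91139598 on the plus strand for Areg and chr5:91402995-91403244 on the minus strand for Btc. Capitals mark a cyclic AMP response element (CRE, TGACGTCA) and a TATA box (TATAAA).
Areg: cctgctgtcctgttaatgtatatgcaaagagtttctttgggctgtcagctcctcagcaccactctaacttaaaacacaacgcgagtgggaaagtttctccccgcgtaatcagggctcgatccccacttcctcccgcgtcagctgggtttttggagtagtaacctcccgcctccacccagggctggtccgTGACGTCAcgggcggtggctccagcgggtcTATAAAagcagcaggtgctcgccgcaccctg
Btc: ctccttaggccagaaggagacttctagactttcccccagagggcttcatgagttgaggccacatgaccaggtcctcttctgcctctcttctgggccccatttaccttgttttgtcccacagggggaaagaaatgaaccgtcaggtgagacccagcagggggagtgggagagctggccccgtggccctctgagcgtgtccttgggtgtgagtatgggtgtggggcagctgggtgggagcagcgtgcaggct

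Among the 5 promoters, that of Areg held the only CRE, beginning 61 bases before the start, and the only TATAAA, 31 bases before it. Searched on both strands over the same 250 bases, TGACGTCA was found in 1.55% of 32851 promoters and TATAAA in 12.4%. The GC box GGGCGG, in 32.7% of promoters, was present in those of Areg, Egfr and Tgfa, and in Areg began 52 bases before the start, past the end of the CRE. Neither the AP-1 motif TGANTCA, in 6.75% of promoters, nor the TCF/LEF letters CTTTGA, in 13.8%, occurred in any of the 5. A match is a description of these letters and does not show a bound site.

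Depth was 17359422 to 20773337 counts per library. The embryonic stem cell markers Pou5f1, Sox2, Nanog, Esrrb, Zfp42, Klf4, Tfcp2l1 and Dppa5a were detected in all 9 libraries, at a summed 3611 to 3926 CPM (read counts scaled to library size). All 12 fibroblast markers, among them Col1a1, Col3a1 and Fn1, were detected as well, with none at 0, at a summed 4656 to 5282 CPM in control, 5412 to 5883 CPM with BRD0705 and 5222 to 5902 CPM with CHIR. Of the 8 stem cell markers, 0 passed with BRD0705 in edgeR, with 2 at an unadjusted p under 0.05, and 1 in DESeq2. Of all 15366 tested genes, 2436 had an unadjusted p under 0.05 in this contrast, and DESeq2 called 489. With CHIR, 5 of the 8 had a negative log2 fold change, with a list median of -0.00996, and 2 passed, beside 6.30% of all tested genes. These 2 were Esrrb and Klf4, both pluripotency transcription factor genes. They rose with CHIR by log2 fold changes of 0.22 ± 0.05 and 0.19 ± 0.05 (SE; edgeR adjusted p 0.00734 and 0.0369), in the direction of Ereg and Hbegf in that contrast. With BRD0705 against control, Klf4 went the other way, at -0.15 ± 0.05, and Esrrb stood at 0.07 ± 0.05 (SE; edgeR adjusted p 0.171 and 0.517). Neither passed there. Esrrb and Klf4 were also the 2 of 8 markers that passed between the inhibitors, beside 7.77% of all tested genes. Both were lower with BRD0705 than with CHIR, by -0.15 ± 0.05 and -0.35 ± 0.05 (SE; edgeR adjusted p 0.0474 and 0.000660). Without 1 library, the CHIR call of Esrrb passed in 9 of 9 fits and that of Klf4 in 4 of 9 (adjusted p up to 0.129), and both were lost with the mean level of the fibroblast markers as a covariate (0.0720 and 0.160). Between the inhibitors, Klf4 passed in 9 of 9 such fits and Esrrb in 1 of 9 (adjusted p up to 0.129). Their part in the ligand values was not tested. The libraries also hold transcripts typical of feeder fibroblasts, and these counts cannot tell which cells made a given EGF family transcript. Ctnnb1, the gene of the genotype label, had reads in every library, from 302 to 371 CPM, and the exons those reads came from cannot be seen in gene-level counts.

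Hbegf, which encodes heparin-binding EGF-like growth factor, was the most abundant of the 8 per length, and the ligands spanned a far wider range than the receptors. Levels between genes are compared as CPM per kb of exon, from GENCODE vM39 exon lengths. Hbegf stood at 7.83 ± 1.38 CPM per kb over the 9 libraries, Erbb3 at 5.86 ± 0.475 and Erbb2 at 3.72 ± 0.300 (SD, n = 9 each). Egfr was at 0.699 ± 0.0424 CPM per kb and Ereg, the epiregulin gene, at 0.627 ± 0.206. Areg, which encodes amphiregulin, followed at 0.294 ± 0.239, Tgfa, the transforming growth factor alpha gene, at 0.186 ± 0.0597 and Btc, the betacellulin gene, at 0.0464 ± 0.0261. In this order the library ranges overlapped between Hbegf and Erbb3, between Egfr and Ereg, between Ereg and Areg and between Areg and Tgfa, and were separate at the other 3 steps. The longest annotated transcript of Hbegf is shorter than the union of its exons, 2.89 against 5.11 kb, and scaling by it puts Hbegf at 13.9 CPM per kb. The spread of Ereg, Areg and Hbegf includes differences between the groups.

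**Figure D1:**
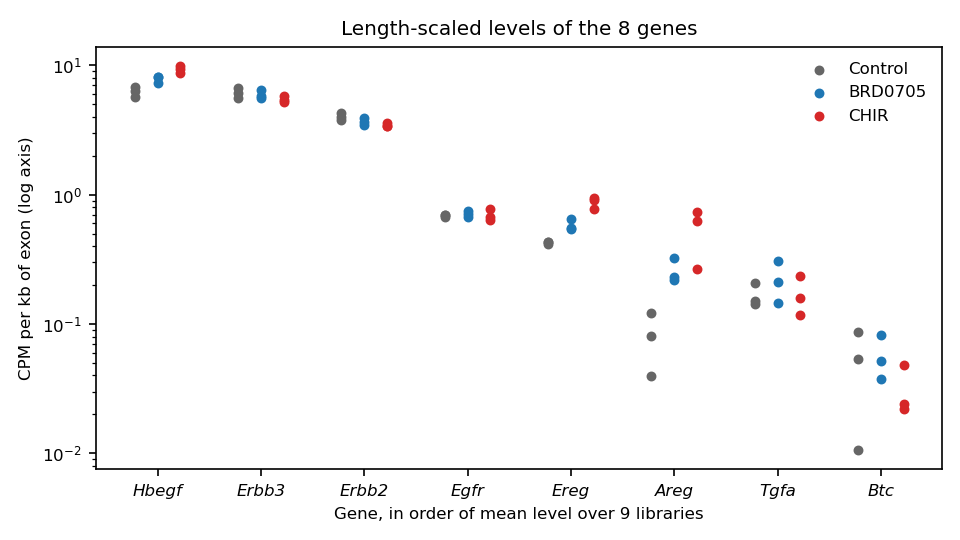
Level of each gene in CPM per kb of exon (log axis), with genes in order of their mean over 9 libraries and 1 point per library in the colour of its group. Hbegf, Erbb3 and Erbb2 lie above 1 CPM per kb in all 9 libraries, and the other 5 genes lie below it.

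With CHIR, in the contrast that chose the genes, the mean of Ereg stood above that of Egfr, unlike in control, but their library ranges overlapped. The step also depends on the length used. Scaled by its longest transcript, Egfr averaged 0.791 CPM per kb over the 9 libraries, against 0.699 with the union of exons. Ereg was at 0.425 ± 0.0106 CPM per kb in control, below Egfr at 0.691 ± 0.0113, and at 0.877 ± 0.0923 with CHIR, above Egfr at 0.698 ± 0.0740 (mean ± SD of 3 libraries each). With BRD0705, Ereg stayed below Egfr, at 0.580 ± 0.0611 against 0.709 ± 0.0364 CPM per kb (mean ± SD of 3 libraries each). On union exon lengths, Hbegf was close to Erbb3 in control, at 6.30 ± 0.554 against 6.14 ± 0.547 CPM per kb, at 7.89 ± 0.476 against 5.95 ± 0.438 with BRD0705, and at 9.31 ± 0.597 against 5.50 ± 0.306 with CHIR (mean ± SD of 3 libraries each).

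With BRD0705, Hbegf rose and Ereg and Areg stood above control in every library. Ereg gave 1.92, 1.84 and 1.92 CPM in control replicates 1 to 3, 2.40, 2.44 and 2.89 CPM with BRD0705, and 3.44, 4.07 and 4.21 CPM with CHIR, on 38 to 77 counts per library. The 3 groups did not overlap, and the order was control, BRD0705, CHIR. The log2 fold change of BRD0705 against control was 0.45 ± 0.18 (SE; edgeR adjusted p 0.237 by the quasi-likelihood test, Benjamini-Hochberg over all genes), which did not pass the threshold of 0.05. CHIR against control, the contrast that chose Ereg, had a log2 fold change of 1.04 ± 0.18 (SE), and BRD0705 was below CHIR by a log2 difference of -0.59 ± 0.17 (SE).

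Hbegf gave 34.8, 32.6 and 29.2 CPM in control replicates 1 to 3, 37.5, 41.7 and 41.8 CPM with BRD0705, and 50.4, 48.02 and 44.3 CPM with CHIR, on 593 to 1011 counts per library. As for Ereg, the 3 groups did not overlap and CHIR was the highest. Hbegf rose with BRD0705 by a log2 fold change of 0.32 ± 0.07 (SE; edgeR adjusted p 0.0419, higher in 3 of 3 libraries). It was the 1 member called among the 6 tested, where 1.22% of all tested genes were called in this contrast and 0.690% were called higher. That call was kept in only 3 of 9 fits without 1 library, over which the log2 fold change was 0.27 to 0.39. The edgeR adjusted p was 0.121 without control replicate 2, 0.180 without control replicate 3, 0.0758, 0.119 and 0.0673 without BRD0705 replicates 1, 2 and 3, and 0.0671 without CHIR replicate 2, which enters through the shared dispersion.

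The CHIR values of Hbegf, in the contrast that chose the genes, corresponded to a log2 fold change of 0.56 ± 0.07 against control (SE). In that contrast Ereg and Hbegf were the 2 of 6 tested members past the threshold, beside 6.30% of all tested genes, and nothing is read from this count because the rule used the contrast. Between the inhibitors, Hbegf was lower with BRD0705 than with CHIR in all libraries, by a log2 difference of -0.24 ± 0.07 (SE; edgeR adjusted p 0.0527), just short of the threshold. It passed with DESeq2 (adjusted p 0.0464), and in edgeR with DESeq2-type size factors (adjusted p 0.0459), with no low-count filter (adjusted p 0.0187) and with the 2 inhibitor groups alone in the fit (adjusted p 0.0458). It also passed without control replicate 1 (edgeR adjusted p 0.0374), control replicate 3 (0.0457) or CHIR replicate 3 (0.0375). It did not pass in the other 6 fits without 1 library (adjusted p up to 0.205), or with the replicate block, library size only, a mean CPM of at least 1 or a fibroblast marker covariate (up to 0.120).

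**Figure D2:**
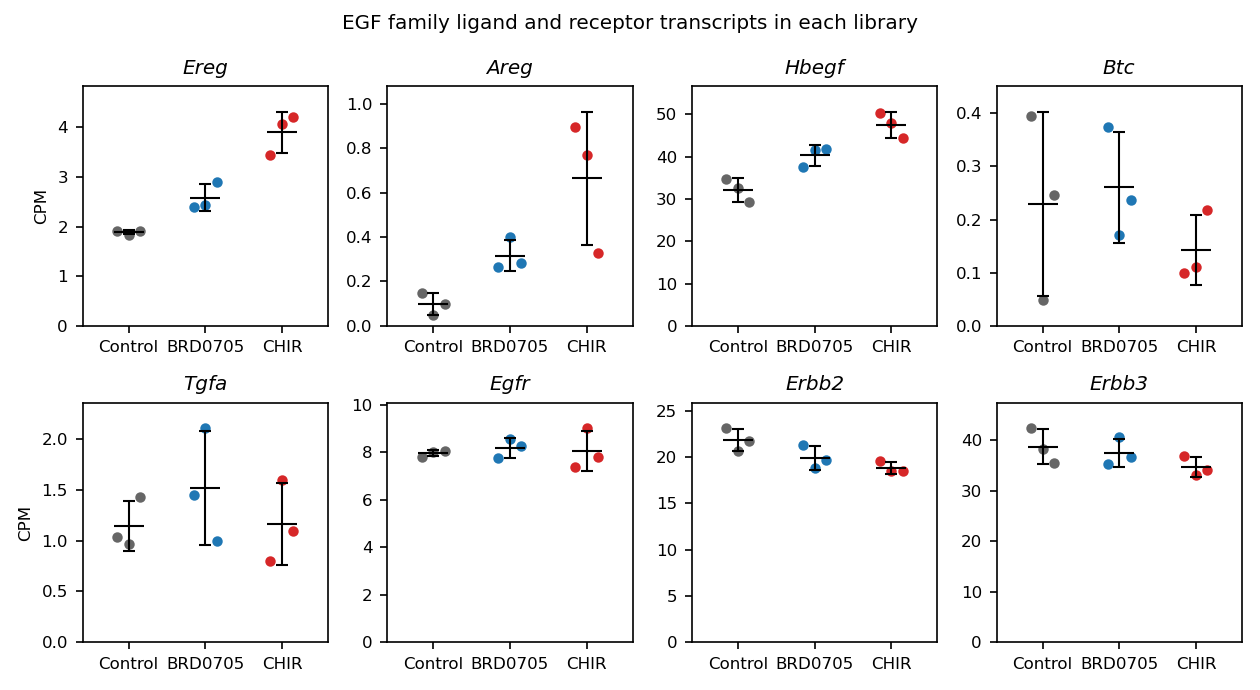
CPM of the 8 genes in each library (points, vertical axes from 0), with the mean (wide bar) and SD (error bar) of the 3 libraries of each group. Ereg and Hbegf are lowest in control, higher with BRD0705 and highest with CHIR, with no overlap, Areg has its 3 lowest values in control, and Egfr is level at 7.37 to 9.02 CPM.

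Areg was close to the limit of detection. It had 3, 1 and 2 counts in control replicates 1 to 3, 5, 7 and 6 with BRD0705, and 18, 14 and 6 with CHIR. Every inhibitor library was above every control library, and CHIR replicate 3 lay within the BRD0705 range. In CPM the control libraries averaged 0.0982 ± 0.0497, the BRD0705 libraries 0.317 ± 0.0709 and the CHIR libraries 0.665 ± 0.299 (mean ± SD of 3 libraries each). The summed counts, 18 with BRD0705 and 6 in control, gave a ratio of 3.20 with a 95% exact interval of 1.22 to 9.86, and CHIR, with 38 counts, a ratio to control of 6.86 (2.88 to 19.9). These intervals cover counting error only. With no low-count filter, which is the only fit that holds Areg, the log2 fold change of BRD0705 against control was 1.62 ± 0.71 (SE; edgeR adjusted p 0.305), and that of BRD0705 against CHIR -1.07 ± 0.52 (SE; edgeR adjusted p 0.283). Neither passed.

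Btc and Tgfa showed no such order. Btc had 8, 1 and 5 counts in control, 7, 3 and 5 with BRD0705 and 2, 2 and 4 with CHIR, so that all groups overlapped. Its ratio of BRD0705 to control was 1.14, with a 95% exact interval of 0.515 to 2.56, and that of CHIR to control 0.619 (0.225 to 1.58), so a difference was not detectable at this depth. Tgfa gave 1.03, 0.968 and 1.43 CPM in control, 1.44, 2.10 and 0.996 CPM with BRD0705, and 0.797, 1.60 and 1.09 CPM with CHIR. Its groups overlapped too. The log2 fold change with BRD0705 was 0.39 ± 0.32 (SE; edgeR adjusted p 0.606), with a 95% interval of -0.39 to 1.16 that is wide at 16 to 37 counts per library.

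**Figure D3:**
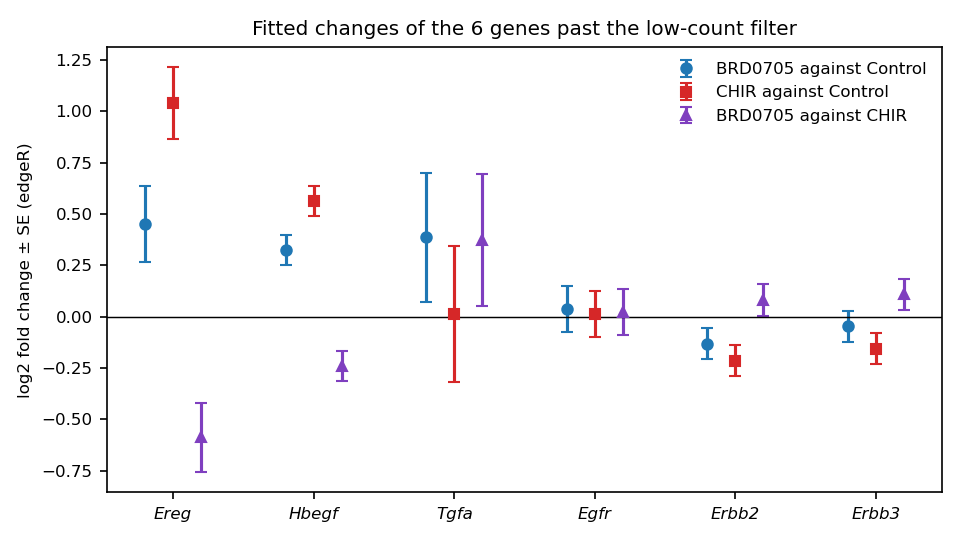
Fitted log2 fold changes of the 6 genes past the low-count filter, with standard errors, for BRD0705 against control (circles), CHIR against control (squares) and BRD0705 against CHIR (triangles). Ereg and Hbegf are above 0 under both inhibitors and below 0 in the direct contrast, while Erbb2 and Erbb3 have small changes of the opposite signs. The first and second contrasts share the control libraries.

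The receptors moved little. Egfr, a receptor of Ereg, Areg, Hbegf, Btc and Tgfa, gave 7.83, 8.03 and 8.07 CPM in control, 7.75, 8.58 and 8.26 CPM with BRD0705, and 7.37, 9.02 and 7.81 CPM with CHIR. The control values lay within the range of each inhibitor group. The log2 fold change with BRD0705 was 0.04 ± 0.11 (SE; edgeR adjusted p 0.914), with a 95% interval of -0.23 to 0.31, and BRD0705 against CHIR gave 0.02 ± 0.11 (SE; edgeR adjusted p 0.929).

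Erbb2 gave 23.1, 20.7 and 21.7 CPM in control, 21.3, 18.8 and 19.6 CPM with BRD0705, and 19.5, 18.4 and 18.5 CPM with CHIR. The CHIR libraries were all below the control libraries, and the BRD0705 libraries overlapped both groups. The log2 fold change was -0.13 ± 0.08 with BRD0705 (SE; edgeR adjusted p 0.423), and -0.21 ± 0.08 with CHIR (SE) in the contrast that chose the genes. Erbb3 gave 42.4, 38.2 and 35.5 CPM in control, 35.3, 40.6 and 36.6 CPM with BRD0705, and 36.9, 33.1 and 34.1 CPM with CHIR, with overlap between all groups. Its log2 fold change was -0.05 ± 0.07 with BRD0705 (SE; edgeR adjusted p 0.824) and -0.16 ± 0.08 with CHIR (SE). In the direct contrast Erbb2 and Erbb3 had log2 differences of 0.08 ± 0.08 and 0.11 ± 0.08 (SE; edgeR adjusted p 0.582 and 0.425). Erbb2 lies partly opposite the protein-coding gene Mien1, and the use of strand in counting is not given in the sources used here, so some of its reads could be shared.

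The direct contrast called 1 of the 6 tested members, Ereg, beside 7.77% of all tested genes, and the CHIR libraries that enter it are those that chose Ereg. The edgeR adjusted p of Ereg there was 0.0392, and nothing is read from this call. It was kept in 3 of 9 fits without 1 library, those without control replicate 1, BRD0705 replicate 3 or CHIR replicate 1, and lost in the other 6 (adjusted p up to 0.134). It was also lost in 4 of 8 other alternatives, namely DESeq2, library size only, the fibroblast marker covariate and only the 2 inhibitor groups in the fit (up to 0.109). Group values of Ereg and Hbegf did not overlap in any of the 3 contrasts, so 2 of 6 members were separate with BRD0705 against control, beside 20.2% of all tested genes, and 2 of 6 between the inhibitors, beside 26.7%. With CHIR against control the count was 3 of 6, with Erbb2, beside 25.1%. Ereg overlaps the gene Gm19610 on the other strand, whose row had at most 1 count in a library. With the use of strand not given, that row does not show how many reads could be shared.

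The fibroblast markers as a list moved in the same direction against control as Ereg, Areg and Hbegf. The mean log2 CPM over the list, used as a score, averaged 6.52 ± 0.10 for the control libraries, 6.76 ± 0.06 for BRD0705 and 6.68 ± 0.13 for CHIR (mean ± SD of 3 libraries each). All 12 had a positive log2 fold change with BRD0705 and 11 of 12 with CHIR, with medians of 0.23 and 0.17 against -0.0038 and -0.0091 over all tested genes. In each contrast 2 of 12, Col1a1 and Col5a1, passed (edgeR adjusted p 0.0405 and 0.0342 with BRD0705, 0.0407 and 0.0481 with CHIR), beside 1.22% of all tested genes with BRD0705 and 6.30% with CHIR. These calls were near the threshold and were lost in some fits without 1 library, while the log2 fold changes stayed positive. With BRD0705 each was lost without control replicates 2 or 3 or BRD0705 replicates 1 or 2 (0.0686 to 0.199). With CHIR each was lost without control replicates 2 or 3 or CHIR replicates 1 or 2 (0.0571 to 0.189) and with library size only (0.0529 and 0.0789), and that of Col5a1 also without BRD0705 replicates 1 or 2 (0.0529 and 0.0532) and with only the 2 groups compared in the fit (0.0547). In these bulk libraries a larger share of a cell type and more RNA per cell cannot be told apart. CHIR replicate 3 had a score of 6.53, within the control range of 6.42 to 6.62, and the highest Ereg level of the 9 libraries. Its Hbegf level of 44.3 CPM was above every control and BRD0705 library. These values of 1 library, in the contrast that chose the genes, are a description, and the part of the feeder cells in them was not tested. With the score as a covariate, the log2 fold change of CHIR against control, the contrast that chose the genes, was 1.09 ± 0.23 for Ereg and 0.51 ± 0.09 for Hbegf (SE). With BRD0705, the same fit gave 0.53 ± 0.29 for Ereg and 0.24 ± 0.12 for Hbegf (SE), and Hbegf no longer passed (edgeR adjusted p 0.837). In that fit 1 gene in all was called for BRD0705, whose scores all lay above the control scores. The fit therefore separates the score from BRD0705 poorly, and a call lost there is not particular to the gene. The part of the feeder cells in the Hbegf call was not tested further.

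**Figure D4:**
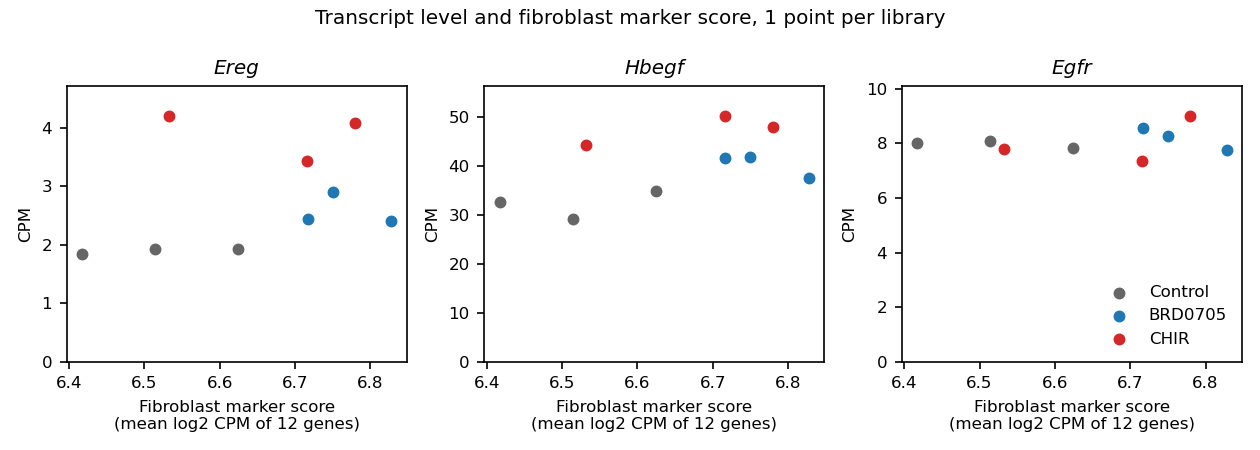
CPM of Ereg, Hbegf and Egfr (vertical axes from 0) against the mean log2 CPM of 12 fibroblast markers, 1 point per library. The BRD0705 libraries have scores above all control libraries, CHIR replicate 3 at 6.53 lies among the controls in score and above them in Ereg and Hbegf, and Egfr is level across scores. The control and CHIR points belong to the contrast that chose the genes and are a description.

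The genes of the rest of the pathway were taken from lists set out with earlier results of these data known. Of the remaining family, Egf, Nrg1, Nrg2 and Nrg4 were tested, and 0 of 4 passed in any of the 3 contrasts in edgeR or DESeq2, with 2 at an unadjusted p under 0.05 with CHIR and 0 in the other contrasts. Of all 15366 tested genes, 2436 had an unadjusted p under 0.05 with BRD0705, 3148 with CHIR and 3452 between the inhibitors. DESeq2 called 489, 928 and 1129 of them. These numbers stand beside the same counts of each list below. The genes Epgn, Nrg3 and Erbb4 were below the filter. Egf, the founding ligand, had 47 counts in control, 26 with BRD0705 and 22 with CHIR, and log2 fold changes of -0.75 ± 0.42 and -0.97 ± 0.43 (SE; edgeR adjusted p 0.409 and 0.211). Among 11 genes of ligand shedding, including the sheddase gene Adam17 and its partner genes Rhbdf1 and Rhbdf2, 0 passed in edgeR in each of the 3 contrasts, and 2 did in DESeq2 with BRD0705. At an unadjusted p under 0.05 there were 2 against control with either inhibitor and 0 in the direct contrast. Their median log2 fold change was 0.11 with BRD0705 and 0.11 with CHIR. Adam15, a metalloprotease gene, had the lowest p with BRD0705, at 0.28 ± 0.07, and stood at 0.19 ± 0.07 with CHIR (SE; edgeR adjusted p 0.0507 and 0.101). Rhbdf2 had the lowest with CHIR, at 0.17 ± 0.06, and stood at 0.21 ± 0.06 with BRD0705 (SE; edgeR adjusted p 0.0813 and 0.0829).

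Of 18 adaptor and RAS-ERK core genes, 0 passed with BRD0705 in edgeR or DESeq2. At an unadjusted p under 0.05 there were 2, beside 2436 of all 15366 tested genes. With CHIR, 1 fell in edgeR, where 6.30% of all tested genes were called in either direction. That gene was Ksr1, a scaffold of RAF, MEK and ERK, at 22.3 ± 0.548 CPM in control, 25.6 ± 1.43 with BRD0705 and 17.4 ± 1.54 with CHIR (mean ± SD of 3 libraries each). Its log2 fold change with CHIR was -0.36 ± 0.08 (SE; edgeR adjusted p 0.0109), with an adjusted p of 0.0649 without CHIR replicate 1 and 0.0543 with the fibroblast score as a covariate. The direct log2 difference of Ksr1, BRD0705 over CHIR, was 0.56 ± 0.08 (SE; edgeR adjusted p 0.000303). In the same direct contrast Ptpn11, which encodes the phosphatase SHP2, was lower with BRD0705, by -0.23 ± 0.06 (SE; edgeR adjusted p 0.0230). The call of Ptpn11 was lost without BRD0705 replicates 1 or 2 or CHIR replicates 1 or 2, with adjusted p of 0.0533 to 0.108, and with library size only (0.0586) or the covariate (0.0552). Of 16 receptor inhibitors and turnover genes, among them Errfi1 and Lrig1, 0 passed in edgeR in any contrast. At an unadjusted p under 0.05 BRD0705 gave 3, CHIR gave 2 and the comparison between inhibitors gave 1, and DESeq2 called 0, 1 and 0. Of all 15366 tested genes, 2436, 3148 and 3452 had such an unadjusted p, and DESeq2 called 489, 928 and 1129.

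Early response genes that ERK signalling is known to switch on were tested as 19 of a list of 21. With BRD0705, Dusp1, Fosl1, Junb and Nr4a1 rose, 4 genes in all, and 0 fell, with a list median of 0.16. Of all tested genes, 1.22% were called in this contrast. The calls of Fosl1, Junb and Nr4a1 were lost without control replicate 2, control replicate 3 or BRD0705 replicate 1 (edgeR adjusted p 0.0657 to 0.213), and those of Junb and Nr4a1 also without BRD0705 replicate 2 (0.0851 and 0.0686), and that of Nr4a1 also without CHIR replicate 2 (0.0597). All 3 were lost with the fibroblast covariate (0.837 to 0.888), a fit that called 1 gene in all for BRD0705. With CHIR, Egr1, Fosl1, Ier2, Ier3, Jun, Junb and Spry4 rose, 7 genes in all, and Myc fell, with a list median of 0.12. Of all tested genes, 6.30% were called with CHIR. The genes raised with CHIR in every fit without 1 library and with the fibroblast covariate were Egr1, Fosl1, Ier3 and Spry4. Ier2, Jun and Junb lost their calls with the covariate (0.0993, 0.309 and 0.0688), and Jun also without control replicates 2 or 3 or CHIR replicates 1 or 2 (0.0517 to 0.0636). Egr1 encodes a zinc finger transcription factor, and was at 3.998 ± 0.595 CPM in control, 5.54 ± 0.686 with BRD0705 and 7.45 ± 0.548 with CHIR (mean ± SD of 3 libraries each). Fosl1, an AP-1 subunit gene, was at 14.6 ± 1.32, 20.2 ± 2.44 and 24.7 ± 0.612 CPM in the same order (mean ± SD of 3 libraries each). Spry4, which encodes an inhibitor of receptor tyrosine kinase signalling, was at 64.4 ± 1.27, 71.8 ± 1.51 and 84.5 ± 5.87 CPM (mean ± SD of 3 libraries each), and its log2 fold change with CHIR was 0.39 ± 0.06 (SE; edgeR adjusted p 0.000615). The means of all 7 genes raised with CHIR ran from control to BRD0705 to CHIR, as for Ereg and Hbegf. These genes were picked by their call with CHIR, which fixed CHIR above control in advance, so nothing is read from their number. With BRD0705 against control, Egr1, Ier2, Ier3, Jun and Spry4 did not pass (edgeR adjusted p 0.121 to 0.651). Between the inhibitors, Egr1, Fosl1, Jun and Junb did not pass (edgeR adjusted p 0.0501 to 0.694).

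Among the early response genes called against control, Dusp1, Nr4a1 and Myc did not follow the order control, BRD0705, CHIR. Nr4a1 was at 98.1 ± 8.28 CPM in control, 120 ± 7.01 with BRD0705 and 109 ± 5.48 with CHIR (mean ± SD of 3 libraries each). Its log2 difference of BRD0705 over CHIR was 0.15 ± 0.07 (SE; edgeR adjusted p 0.195). Dusp1, which encodes a phosphatase of MAP kinases, was at 89.7 ± 5.41 CPM in control, 122 ± 3.22 with BRD0705 and 96.2 ± 2.28 with CHIR (mean ± SD of 3 libraries each). It was higher with BRD0705 than in control and than with CHIR (log2 fold changes 0.45 ± 0.06 and 0.35 ± 0.06 SE; edgeR adjusted p 0.00127 and 0.000992). The first call was lost with the fibroblast covariate (edgeR adjusted p 0.349). In that fit the log2 fold change of Dusp1 was 0.40, and 1 gene in all was called for BRD0705. Myc, the gene that fell with CHIR, was at 56.6 ± 4.76, 66.0 ± 5.66 and 47.6 ± 0.875 CPM in the order control, BRD0705, CHIR, with a log2 fold change of -0.25 ± 0.07 with CHIR (SE; edgeR adjusted p 0.0476). Its CHIR call was lost in 7 of the 9 fits without 1 library, all but those without control replicate 2 or BRD0705 replicate 1, with adjusted p of 0.0510 to 0.175, with DESeq2-type size factors (0.0561) and with the fibroblast covariate (0.0588). Between the inhibitors Myc was higher with BRD0705, by 0.47 ± 0.07 (SE; edgeR adjusted p 0.000571). That call was kept in 9 of 9 fits without 1 library and in 8 of 8 other alternatives. Dusp6, Etv4 and Etv5, often used as readouts of ERK activity, passed in no contrast, and Dusp6 had log2 fold changes of -0.01 ± 0.07 with BRD0705 and 0.03 ± 0.07 with CHIR (SE; edgeR adjusted p 0.981 and 0.897).

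**Figure D5:**
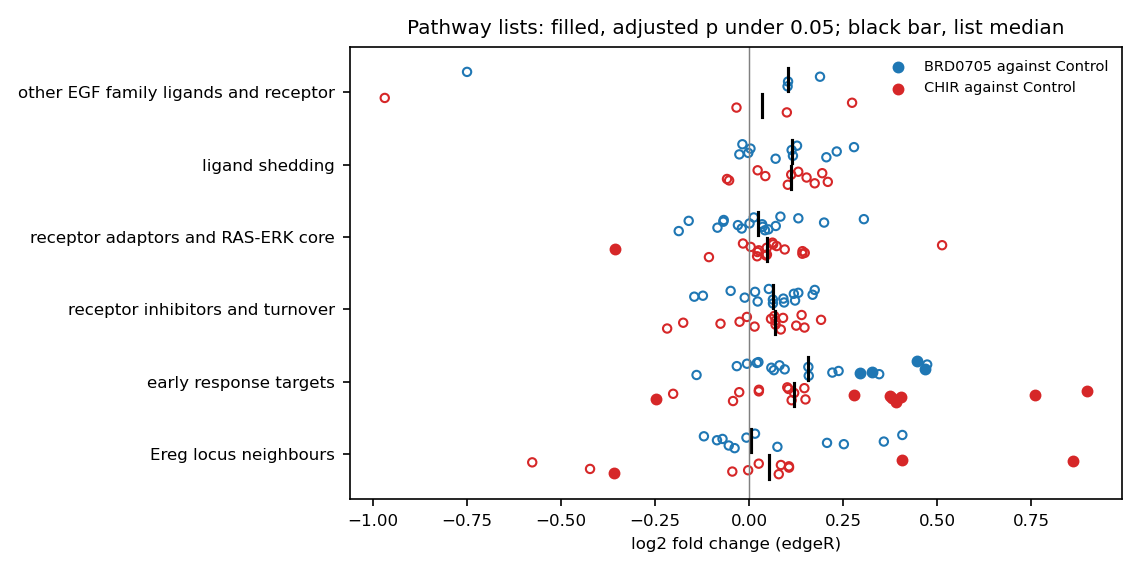
Log2 fold changes against control of the tested genes of 6 pathway and locus lists, for BRD0705 (blue) and CHIR (red), with filled points at an edgeR adjusted p under 0.05 and a black bar at each list's median. Filled points lie mostly in the early response list, where 4 genes passed with BRD0705 and 8 with CHIR, and the ligand shedding and receptor inhibitor lists hold none. Of all tested genes, 1.22% passed with BRD0705 and 6.30% with CHIR.

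Around Ereg on chromosome 5, 12 of 16 listed neighbours were tested, and 2 rose and 1 fell with CHIR, beside 6.30% of all tested genes called. The chemokine gene Cxcl2 was at 2.66 ± 0.0854 CPM in control, 3.50 ± 0.991 with BRD0705 and 4.82 ± 0.681 with CHIR (mean ± SD of 3 libraries each), and Cxcl1 at 38.4 ± 4.14, 38.7 ± 5.38 and 50.9 ± 8.11 CPM. Their log2 fold changes with CHIR were 0.86 ± 0.19 and 0.41 ± 0.11 (SE; edgeR adjusted p 0.0115 and 0.0310). The call of Cxcl2 was lost without CHIR replicate 1 (0.0519), that of Cxcl1 without control replicates 1 or 2 or CHIR replicates 1 or 2 (0.0684 to 0.154) or in DESeq2 (0.104), and both with the fibroblast covariate (0.160 and 0.543). Mthfd2l, a folate enzyme gene between the chemokines and Epgn, had a log2 fold change of 0.11 ± 0.19 with CHIR (SE; edgeR adjusted p 0.826). Thap6 fell, at -0.36 ± 0.10 (SE; edgeR adjusted p 0.0328). Its call was lost without control replicates 2 or 3, BRD0705 replicate 2 or CHIR replicates 1 or 2 (0.0523 to 0.142), with the covariate (0.329) and with DESeq2 (0.0557). With BRD0705, 0 of the 12 passed in edgeR, 1 passed in DESeq2, and 1 had an unadjusted p under 0.05. Of all 15366 tested genes, 489 passed in DESeq2 and 2436 had such an unadjusted p.

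The genes whose log2 CPM followed Ereg most closely over the 9 libraries, among the 13751 genes whose log2 CPM averaged 0 or more, were Pmm2, Enc1, Tmem43, Socs2 and Clk3, with Pearson correlations of 0.977, 0.974, 0.966, 0.961 and 0.958. The libraries share the 3 treatments, so these values describe the same steps between groups. Pmm2 was at 22.9 ± 0.400 CPM in control, 25.0 ± 1.08 with BRD0705 and 28.9 ± 0.227 with CHIR (mean ± SD of 3 libraries each). Within the family, the correlation with Ereg over the 9 libraries was 0.885 for Hbegf and 0.818 for Areg, against 0.140 for Egfr, -0.0474 for Tgfa, -0.201 for Btc, -0.642 for Erbb3 and -0.811 for Erbb2.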

How the data were processed

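RNA sequencing libraries of mouse embryonic stem cells, 3 per group and 9 in all, were grouped by the library descriptions in the labels. The deposited file used holds raw counts of reads for each gene symbol. The submitters' processing notes name RSEM, DESeq2 and mm10 with no role; annotation, versions and use of strand are not given in the sources used here. Per the labels' protocols ribosomal RNA was depleted, while the molecule label names polyA RNA. The deposited normalized table was not used. The count test was edgeR 4.0.16 under R 4.3.3 (filterByExpr with a minimum count of 10, TMM, quasi-likelihood test, 1 fit of 3 group means with 6 residual degrees of freedom, 2-sided, Benjamini-Hochberg adjustment, threshold 0.05), and the method was tested on simulated data. SEs were derived from each fold change and F value, and 95% intervals from the t distribution on those degrees of freedom. TMM factors scaled the CPM, with a prior count of 2 before logs. Positions and promoters are RefSeq's on GRCm38.p6, the assembly that mm10 names; exon lengths are the union of GENCODE vM39 exons, which is not stated to be the authors' annotation.

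The genes named were the 8 members, listed genes past the threshold, and the 5 genes most correlated with Ereg; Adam15 was named after its value was seen, and Adam17, Rhbdf1, Rhbdf2, Errfi1, Lrig1, Dusp6, Etv4, Etv5, Mthfd2l and the other EGF family genes were added for their known roles or position. A further gene past the threshold is not reported here. The members and lists were chosen with earlier results of these data known. Alternatives were the replicate block, DESeq2 1.42.0, other scalings and filters, the groups compared alone, a fibroblast score covariate, longest-transcript lengths and leaving out each library.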

Additional observations from a re-analysis of the deposited data

How the results depend on the processing

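Over all tested genes, BRD0705 against control called 188 genes, but 489 in DESeq2, 609 with no low-count filter, 1 with the fibroblast covariate (894 at an unadjusted p under 0.05) and 21 to 305 without 1 library. CHIR against control called 968, but 264 with the covariate and 514 to 1070 without 1 library; BRD0705 against CHIR called 1194, but 668 and 616 to 1313. The log2 change of Hbegf with BRD0705 was 0.24 with the covariate and 0.27 to 0.39 without 1 library. Against CHIR it was -0.24 in each of the 4 alternatives that took it past the threshold (DESeq2, its size factors in edgeR, no filter, only the groups compared), and -0.29 to -0.19 without 1 library. Without 1 library, Erbb3 with BRD0705 ranged from -0.10 to 0.025 (above 0 without control replicate 1) and Egfr between inhibitors from -0.040 to 0.11. The cause of these shifts was not tested, and the fits without 1 library also hold fewer libraries. Same-numbered libraries did not deviate together (correlations of -0.0897 to 0.0802 over 9 pairs), and the replicate block called 222, 973 and 1177 genes in the 3 contrasts. For Areg and Btc, at 1 to 18 counts per library, depth limits what can be seen.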
